A study of Homo sapiens with 14 samples.

Results

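Glutathione, thioredoxin and the NADPH that recharges them were represented in the screen by 9 genes, GCLC, GCLM, GSS, GSR, TXN, TXNRD1, PGD, TALDO1 and IDH1. They were chosen by gene symbol, and every guide whose name carried one of these symbols was taken. This gave 44 guides of 91463 in the compared sublibraries, and 9 of 16686 genes. Each gene had 5 guides at 1 start, except IDH1 with 4. GSS, GSR, TXNRD1 and PGD lay in sublibrary H1 with 20 guides, GCLC, GCLM, TALDO1 and IDH1 in H2 with 19, and TXN in H3 with 5. The bottom library of H4 held 0 guides for them.

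The screen was made in the human embryonic kidney line HEK293 FLP-In, which expressed the delta opioid receptor fused to the peroxidase APEX2 (pUBC-SSF-DOR-APEX2) together with the repressor dCas9-KRAB-BFP. Per the labels' protocols, clonal cells were grown and tested for knockdown, and the labels do not say how many clones were used. Guides of the hCRISPRi-v2-top5 library were delivered by virus at a multiplicity of about 0.2, with selection in 0.75 µg/ml puromycin for 3 days. At 8 days all cells were given 10 µM of the opioid agonist DADLE for 90 minutes, then 100 µM Amplex UltraRed and 50 µM hydrogen peroxide for 1 minute. The groups compared were the brightest fluorescence quartile (top) and the dimmest (bottom) of each sublibrary, and both carried the same transgenes and the same stimulation. There was 1 library per group, no repeat of a sort was analysed here, and no library came from unstimulated cells. The libraries hold guide sequences from genomic DNA, so neither the level of each gene's RNA nor how far it was repressed was measured, and the cell type cannot be checked against marker genes.

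Glutathione is a small thiol made in successive steps by glutamate-cysteine ligase and glutathione synthetase. It donates electrons to the glutathione peroxidases, which break down hydrogen peroxide, and its oxidised form is restored by glutathione reductase. Thioredoxin does the same for the peroxiredoxins and is restored by thioredoxin reductase, and both reductases draw on NADPH from the pentose phosphate pathway and from isocitrate dehydrogenase. Many of these genes are known targets of NRF2, which binds antioxidant response elements together with a small MAF protein.

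The 6 libraries of H1, H2 and H3 held 22782124 to 34636612 counts, with a median count per listed guide between 1553 and 2004. A guide's value is the log2 ratio of its share in the top library to its share in the bottom library, set to 0 at the median non-targeting guide of its sublibrary. For each gene these ratios were averaged and are given with their SD. Guides to 1 gene share its promoter and the sort, so they are not repeats of the experiment. The SD of non-targeting guides lay between 0.215 and 0.265 on the log2 scale in these sublibraries, against 0.047 to 0.050 from read counting alone. The central 95% of non-targeting guides ran from -0.43 to 0.56 in H1, from -0.41 to 0.50 in H2 and from -0.42 to 0.40 in H3. CPM is a guide's count scaled to a common library total, and the guides of a gene are listed in order of position.

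Promoters of 7 of the 9 genes matched the RefSeq table of GRCh38.p14, which gives 300 bases from 250 before the gene's start to 50 after it. GSR and GSS are named only. The windows of GCLM, PGD and TXNRD1 are shown because repression in this screen acts at gene starts and because they carry the core letters of the antioxidant response element. Capitals mark TGACNNNGC on either strand, which reads GCNNNGTCA when it lies on the opposite strand; 0 of these matches overlapped a complete AP-1 site, TGANTCA.
GCLM, GRCh38.p14 chr1:93909381-93909680, minus strand: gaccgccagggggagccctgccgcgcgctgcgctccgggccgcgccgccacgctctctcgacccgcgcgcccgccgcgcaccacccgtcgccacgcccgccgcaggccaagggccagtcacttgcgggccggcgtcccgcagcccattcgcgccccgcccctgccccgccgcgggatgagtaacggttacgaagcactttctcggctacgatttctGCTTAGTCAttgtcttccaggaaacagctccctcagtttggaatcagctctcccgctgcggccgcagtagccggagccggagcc
PGD, GRCh38.p14 chr1:10398814-10399113, plus strand: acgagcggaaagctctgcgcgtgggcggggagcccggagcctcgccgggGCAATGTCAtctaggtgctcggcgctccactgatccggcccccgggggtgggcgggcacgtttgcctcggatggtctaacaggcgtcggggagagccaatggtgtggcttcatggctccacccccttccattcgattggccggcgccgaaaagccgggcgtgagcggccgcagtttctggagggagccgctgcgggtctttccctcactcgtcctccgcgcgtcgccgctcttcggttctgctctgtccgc
TXNRD1, upstream start, GRCh38.p14 chr12:104215529-104215828, plus strand: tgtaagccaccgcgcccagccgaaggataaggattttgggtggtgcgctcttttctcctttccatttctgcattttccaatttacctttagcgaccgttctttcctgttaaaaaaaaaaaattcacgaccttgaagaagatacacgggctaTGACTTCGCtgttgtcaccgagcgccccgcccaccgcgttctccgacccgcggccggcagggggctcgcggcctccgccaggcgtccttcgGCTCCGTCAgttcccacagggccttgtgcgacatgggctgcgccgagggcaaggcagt
TXNRD1, downstream start, GRCh38.p14 chr12:104286782-104287081, plus strand: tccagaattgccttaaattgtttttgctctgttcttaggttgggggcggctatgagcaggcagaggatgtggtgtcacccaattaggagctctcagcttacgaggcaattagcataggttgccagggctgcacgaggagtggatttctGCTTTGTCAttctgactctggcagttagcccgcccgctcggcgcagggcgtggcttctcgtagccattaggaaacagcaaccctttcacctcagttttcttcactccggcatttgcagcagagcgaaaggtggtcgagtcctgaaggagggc

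The core was found in 5 of the 9 windows of these genes, among them 1 of the IDH1 windows, and in 13.3% of all 35116 promoter windows. In GCLM the match began 34 bases before the start. Both windows of TXNRD1 carried the core, which began 99 and 8 bases before the start in the upstream window and 102 bases before it in the downstream one. GCLC, TXN and TALDO1 had no match within these 300 bases. The guides could not be placed on the windows, because no source used here names the genome build of the positions in their names.

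Of the 9 genes 0 passed the permutation test of the bright against the dim quartile, against 3.95% of all 18116 targets (the guides of 1 gene at 1 start). Higher in the top library were 2.4% of all targets and higher in the bottom library 1.55%. By sublibrary 2.54% passed in H1, 6.01% in H2 and 7.64% in H3. The 9 means ran from -0.42 for GSR to 0.16 for PGD, with a median of 0.03, against a median of 0.01 over all targets. In size, the median of the 9 means was 0.07, and that of all targets 0.09. The permutation test was two-sided and drew from a target's own and the non-targeting guides. Its p-values were adjusted by Benjamini-Hochberg over all targets, with a threshold of 0.05. At an unadjusted p under 0.05 it left 1 of the 9, GSR, against 12.4% of all targets. The quasi-likelihood test of edgeR, in which each guide was a block, also called 0 of 9, against 1.24% of 18046 targets, again with 1 at an unadjusted p under 0.05. These p-values compare the 2 libraries of 1 sort and carry no spread between sorts.

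The 9 genes did not share a direction. Of their means 7 lay above 0 and 2 below, and over all targets 9527 lay above and 8589 below. In H1 the 5-guide target nearest to 0 that passed lay 0.478 from 0, in H2 0.334 and in H3 0.307. GSR, at 0.42 below 0, came close to that distance, and the other 8 means were well inside it.

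GCLC, the catalytic subunit of glutamate-cysteine ligase and the rate-limiting enzyme of glutathione synthesis, stood at 0. Its guides had 58.0, 59.9, 51.1, 141 and 91.7 CPM in the top library, against 59.6, 64.7, 62.5, 144 and 70.1 in the bottom library. The guide at the highest position was more frequent in bright cells, at a log2 ratio of 0.41. The other 4 were less frequent, from -0.27 to -0.01, so the guides did not share a direction. The mean was 0.00 ± 0.25 (SD, n = 5 guides), with a permutation adjusted p of 0.995. Only 1 of 5 guides lay on the side of the mean.

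GCLM, the modifier subunit that raises the activity of GCLC, also had a mean near 0, with a wider spread. Its guides had 50.4, 23.2, 20.3, 74.1 and 102 CPM in the top library, against 50.2, 16.1, 26.3, 75.1 and 107 in the bottom library. Of these guides 3 were nearly equal in both libraries, and the other 2 pointed in opposite directions, at 0.54 and -0.35. The mean was 0.03 ± 0.32 (SD, n = 5 guides; permutation adjusted p 0.958).

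GSS, glutathione synthetase, which adds glycine in the last step, had 72.8, 41.3, 64.5, 89.1 and 60.4 CPM in the top library, against 65.8, 41.4, 77.0, 71.6 and 44.5 in the bottom library. Of the 5 guides 3 were more frequent in bright cells, 1 was level and 1 was less frequent. The mean was 0.13 ± 0.27 (SD, n = 5 guides; permutation adjusted p 0.749). The nearest GSS guide lies 95 bases from guides for MYH7B, a myosin heavy chain gene, in H3. MYH7B had 0.20 ± 0.18 (SD, n = 5 guides) and did not pass either, with a permutation adjusted p of 0.344. Within 1000 bases of the guides of the other 8 genes no target of another gene was found.

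GSR, glutathione reductase, uses NADPH to restore oxidised glutathione, and it lay farthest from 0 among the 9. Its guides had 43.8, 112, 14.8, 53.7 and 92.5 CPM in the top library, against 77.6, 121, 17.1, 68.3 and 141 in the bottom library. Each of the 5 guides was thus scarcer in bright cells. The guides' own levels differed widely and overlapped between the libraries, but each ratio compares a guide with itself. The log2 ratios were -0.83, -0.12, -0.21, -0.35 and -0.61. The mean was -0.42 ± 0.29 (SD, n = 5 guides; permutation adjusted p 0.0861), so the share in bright cells was 0.745 times the share in dim cells. GSR therefore missed the threshold, at percentile 1.10 of the targets of H1, where 0.744% of targets passed on the dim side. The call depended on the settings: a minimum of 200 counts per guide gave a permutation adjusted p of 0.0275 and a rank sum test 0.0179. Leaving out the guide farthest from 0 gave a mean of -0.32 and a permutation adjusted p of 0.744. The random draws were not trimmed in the same way, so that setting tends to raise p by design. Over all 11 alternatives the adjusted p ran from 0.0179 to 0.744, and the mean from -0.43 to -0.32.

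TXN, thioredoxin, is the small protein that passes electrons to the peroxiredoxins. Its guides had 70.7, 76.3, 20.7, 39.6 and 67.3 CPM in the top library, against 77.2, 72.3, 21.4, 46.3 and 78.1 in the bottom library. Of the 5 guides 4 were slightly scarcer in bright cells. The mean was -0.09 ± 0.13 (SD, n = 5 guides; permutation adjusted p 0.805), with the smallest spread over guides of the 9 genes.

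TXNRD1, the cytosolic selenoprotein that restores thioredoxin with NADPH, had a mean of 0.00 ± 0.33 (SD, n = 5 guides; permutation adjusted p 1.00). Its guides had 126, 78.5, 51.8, 50.8 and 36.8 CPM in the top library, against 133, 66.6, 69.5, 38.3 and 40.1 in the bottom library. The mean of 0 came from guides on both sides, from -0.43 to 0.41. The guides are listed under transcript names rather than under a numbered promoter. RefSeq gives TXNRD1 2 starts, and which of them the guides lie at was not determined.

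PGD, 6-phosphogluconate dehydrogenase of the oxidative pentose phosphate pathway, makes NADPH and had the highest mean of the 9. Its guides had 15.9, 38.6, 46.6, 102 and 84.4 CPM in the top library, against 15.6, 29.4, 39.5, 96.3 and 81.8 in the bottom library. All 5 were more frequent in bright cells, but 3 of them by 0.08 or less on the log2 scale. The mean was 0.16 ± 0.15 (SD, n = 5 guides; permutation adjusted p 0.659), or 1.11-fold more in bright than in dim cells, and did not pass. With GSR, PGD was 1 of 2 genes among the 9 with all guides on one side, or 22.2%, against 10.8% of all targets.

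TALDO1, transaldolase of the non-oxidative pentose phosphate branch, had a mean of 0.07 ± 0.43 (SD, n = 5 guides; permutation adjusted p 0.895). Its guides had 64.6, 84.8, 4.45, 51.3 and 76.4 CPM in the top library, against 62.3, 112, 2.61, 52.7 and 83.4 in the bottom library. The rare guide, with 154 counts in the top and 70 in the bottom library, gave the highest ratio of all 44 guides, 0.78 with a counting SD of 0.21. A minimum of 200 counts removed it and turned the mean of TALDO1 to -0.11, with a permutation adjusted p of 0.832.

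IDH1, the cytosolic isocitrate dehydrogenase that reduces NADP, had 69.6, 62.4, 25.1 and 43.8 CPM in the top library, against 80.9, 64.6, 19.0 and 41.6 in the bottom library. Of its 4 guides 2 were more frequent in bright cells and 2 less. The mean was 0.07 ± 0.26 (SD, n = 4 guides; permutation adjusted p 0.900). In order, the means ran PGD, GSS, IDH1, TALDO1, GCLM, GCLC, TXNRD1, TXN and GSR. Each neighbouring pair in this order differed by less than the SD over guides, apart from TXN and GSR, whose means lay 0.33 apart against SDs of 0.13 and 0.29.

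Single guides left the range of the non-targeting guides about as often as guides did in general. Of the 44 guides, 2 lay above the central 95% of the non-targeting guides of their sublibrary and 3 below. That is 11.4%, against 10.6% of all 45364 guides in H1, H2 and H3. Above it were the rare TALDO1 guide and the GCLM guide at 0.54. Below it were 2 GSR guides, at -0.83 and -0.61, and, by the second decimal on the limit itself, 1 TXNRD1 guide at -0.43.

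Some guides that lie almost on top of each other differed in ratio by several times the counting SD. The 5 GCLC guides start on the same strand within 38 bases, yet they spanned -0.27 to 0.41. The GCLM guides at positions 94374898 and 94374906, 8 bases apart on the same strand, had 0.54 and -0.35, a difference of 0.90 where counting alone gives an SD of 0.12. In TALDO1 a pair 9 bases apart differed by 0.46, and in GSR a pair 9 bases apart differed by 0.26. Such pairs were counted only between guides of a target adjacent in position on the same strand and under 20 bases apart. Close guides with another guide between them were not paired. Over 10 such pairs in 6 of the 9 genes the median difference was 0.22, and 4 pairs had opposite signs. Over 8355 such pairs in H1, H2 and H3 the median difference was 0.21, and 3772 pairs had opposite signs.

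The abundance of the guides, summed over both libraries and set against the median non-targeting guide, gives the second readout of these genes. It mixes the make-up of the guide library with growth over 8 days, since no library from the start of the culture was analysed here. PGD guides were the least abundant, at -0.71 ± 1.06 on the log2 scale, or percentile 13.3 of the targets of H1. TALDO1 followed at -0.56 ± 1.94, percentile 13.5 in H2, with the rare guide included. GCLC guides were the most abundant at 0.37 ± 0.56 (SD, n = 5 guides in each), percentile 90.7 in H2. The other 6 genes lay between -0.37 and -0.16, and the median of the 9 was -0.32, against -0.11 over all targets. The SDs over guides, from 0.39 in GSS to 1.94 in TALDO1, were large beside the distances between most of these means, and no test was made.

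Around these 9 genes, lists of their pathways held 94 genes, of which 88 were compared and 6 lay in H4. Of the 88, 7 passed with guides more frequent in bright cells and 8 in dim cells, and none of the 15 was among the 9. Over all 16684 genes at their primary start 4.21% passed, 2.58% with guides more frequent in bright cells and 1.62% in dim cells. The median of the 88 was 0.00, and that of all genes 0.01. The lists were chosen with earlier results of these data known. Their counts of calls, here and below, are therefore description, and no list was tested against all genes.

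Glutathione synthesis and cystine supply had the narrowest range of means of the 7 lists. Of its 13 genes 0 passed, with means from -0.11 to 0.13 and a median of 0.03, and GSS and CTH, which releases cysteine from cystathionine, lay farthest from 0 at 0.13 each. Of 14 compared genes for other NADPH sources 0 passed as well, with a median of -0.01. The mitochondrial NAD kinase NADK2 at 0.34 and the malic enzyme ME3 at -0.19 lay farthest. In the pentose phosphate pathway 1 of 8 passed, GPI at -0.40 ± 0.23 (SD, n = 5 guides; permutation adjusted p 0.01002), which interconverts glucose and fructose phosphates and makes no NADPH itself. Taking the median, leaving out the farthest guide or using edgeR each ended its call. The median of that list was 0.03.

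Users of glutathione and thioredoxin held a few calls of either sign. Of 20 genes for glutathione reduction and use, the list of GSR, GPX1 guides gathered in bright cells at 1.02 ± 0.90 and GSTP1 guides in dim cells at -0.78 ± 0.19 (SD, n = 5 guides each). GPX1 is a glutathione peroxidase and GSTP1 a glutathione transferase, both with a permutation adjusted p of 6.54e-04, and the list's median was -0.03. The call of GPX1 ended by rank sum and with edgeR, and that of GSTP1 held in all 11 alternatives. Of 15 thioredoxin system genes, the list of TXN and TXNRD1, TXNL1 passed at -0.39 ± 0.26 (SD, n = 5 guides; permutation adjusted p 0.00466). TXNL1 is a thioredoxin-like protein bound to the proteasome, and a rank sum test, leaving out the farthest guide or edgeR each ended its call. The median of the 15 was -0.07.

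The list for selenoprotein synthesis, which covers the making, insertion and recycling of selenocysteine, the residue in the active site of TXNRD1 and GPX1, included 5 calls. Of 7 compared, guides of 4 gathered in bright cells and of 1 in dim cells, with a median of 0.51. SEPHS2, which makes the selenium donor, had 1.37 ± 0.62, SEPSECS, which completes selenocysteine on its tRNA, 0.92 ± 0.34, and SCLY, the lyase that breaks selenocysteine down, 0.72 ± 0.37. The tRNA kinase PSTK had 0.51 ± 0.19 and the tRNA-associated protein TRNAU1AP -0.53 ± 0.40 (SD, n = 5 guides in each). Their permutation adjusted p-values lay between 6.54e-04 and 0.00241. The calls of SCLY and TRNAU1AP ended without the farthest guide, a setting that removes calls partly by design. That of TRNAU1AP ended with edgeR too. TXNRD1 itself stood at 0.00 in the same H1 libraries as SEPSECS and SCLY. Whether TXNRD1 differs from them was not tested.

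The list around NRF2, the factor of the antioxidant response, held 6 calls among 11 genes. Guides of 2 gathered in bright cells and of 4 in dim cells, with a median of -0.05. The small MAF proteins MAFG and MAFK had -1.19 ± 0.51 and -0.48 ± 0.23, the repressor of the same elements BACH1 -0.72 ± 0.35, and the NRF2 adaptor KEAP1 -0.39 ± 0.25 (SD, n = 5 guides each). NFE2L1, a relative of NRF2, had 0.70 ± 0.45 and the cullin ligase subunit RBX1 0.94 ± 1.33 (SD, n = 5 guides each). Their permutation adjusted p-values lay between 6.54e-04 and 0.0122. With edgeR the calls of MAFK, KEAP1, NFE2L1 and RBX1 ended. Those of KEAP1 and RBX1 also ended by the median and without the farthest guide, and that of RBX1 by rank sum, where MAFG and BACH1 passed in all 11 alternatives. Of the RBX1 guides 3 of 5 shared the sign of the mean. NFE2L2, the gene of NRF2 itself, had 0.07 ± 0.22 and CUL3 0.08 ± 0.16, and neither passed. Nor did MAFF at -0.05 ± 0.54, NQO1 at -0.07 ± 0.20 or SLC48A1 at 0.23 ± 0.29 (SD, n = 5 guides each).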

How the data were processed

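The deposited values are whole-number counts per guide, which the authors did not normalize, per the files' differing totals. Integrated guides were read after 27 PCR cycles, per the labels' protocols, and the submitters' processing notes name Bowtie without a version. Each count was raised by 1 and divided by the library total, and the log2 ratio of top to bottom was centred on the non-targeting guides of the sublibrary. Guides absent from a library were taken as 0. A guide needed 50 counts in either library, which removed 375 guides and 0 of the 44, and a target 3 guides. Means were tested against 100000 random draws from a target's own and the non-targeting guides, with 1 set of draws per sublibrary and guide number. The draws could not give a p below 1e-05, or 6.54e-04 once adjusted. Tools were Python 3.11.15, numpy 2.4.6 and edgeR 4.0.16, whose quasi-likelihood test had no residual degrees of freedom for a single guide and was run over each target's guides. Tests were checked on simulated data.

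The top table of H4 holds 35 complete guides and breaks off, so H4 was not compared. Counting SDs cover counting error only, since reads of PCR products that carry no molecular identifier are not independent. Chromosomes for the search of neighbours came from RefSeq symbols, matched for 16596 of 16686. The 9 genes, the pathway lists and the tests were chosen with earlier results of these data known. All 9 genes are named; in each list up to 3 called genes per direction are named, or the 2 farthest from 0 where none passed. KEAP1, PSTK and the uncalled genes of the NRF2 list were added after their values were seen. The alternatives covered pseudocount, minimum count, centring, choice of guides, test and adjustment. Leaving out the farthest guide dropped each target's guide farthest from 0, but the random draws were not trimmed. A call that ended in that setting was therefore lost partly by design.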

Additional observations from a re-analysis of the deposited data

How the results depend on the processing

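Top and bottom were paired by guide within a sort, but each group held 1 library, so repeats of a sort could not be compared. Of 99 values of the 9 genes under 11 alternatives, 86 kept their direction and their side of the threshold. The count of the 9 past the threshold became 1, GSR, with a minimum of 200 counts and by rank sum, and stayed 0 in the other 9 alternatives. Among all targets 739 of 18101 passed with a minimum of 200 counts, and 487 of 18116 by rank sum. The count over the 88 pathway genes was 15 as reported, 9 without the farthest guide and 7 with edgeR. Over all targets these were 715, 315 and 224. Means near 0 changed sign as follows; none of them passed on either side. GCLC turned to -0.0088 when centred on all guides, to -0.011 with TMM scaling, to -0.018 by the median and to -0.097 without the farthest guide. TXNRD1 turned to -0.088 by the median and to -0.00033 with edgeR. TALDO1 turned to -0.11 with a minimum of 200 counts and without the farthest guide, and to -0.016 by the median. Without the farthest guide GCLM turned to -0.093 and IDH1 to -0.043. Abundance from the bottom library only moved no gene by more than its SD over guides. The SD between non-targeting guides was several times the counting SD, and the spread between sorts is unknown.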
